A study of Mus musculus with 13 samples.

Results

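Through the 9 mouse genes described here T cells sense or make histamine, eicosanoids and oxysterols. They are the histamine receptors *Hrh4* and *Hrh2*, the prostaglandin E2 receptors *Ptger2* and *Ptger4*, the prostacyclin receptor *Ptgir*, the leukotriene B4 receptor *Ltb4r1*, the oxysterol receptor *Gpr183*, and the lipid mediator genes *Alox5ap* and *Hpgds*. The 9 rows were taken by gene symbol from 2 RNA-seq count tables of 24417 named genes each, and all 9 were present in both and passed the filter on low counts in both. The set was selected on earlier results from the same libraries, at least on the rise of *Hrh4* in activated Treg “wannabes”, and which values led to the other genes is not recorded. The comparison of activated with resting “wannabes” is therefore given as a description without p-values for these 9 genes, and the adjusted p-values of the male comparisons are not independent of the selection either.

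The libraries come from spleen and lymph node CD4 T cells of C57BL/6 mice. In the male experiment, control Treg cells (3 libraries) came from Foxp3DTR-GFP/yCd4creERT2 mice, rescued Treg cells (3 libraries) from Foxp3LSL/yCd4creERT2 mice and male “wannabes” (2 libraries) from Foxp3LSL/yCd4wt mice. All of these males received 4-hydroxytamoxifen on postnatal day 14 and were analyzed at day 21. The Foxp3LSL allele carries a Thy1.1 reporter and a STOP cassette between loxP sites in *Foxp3*. The “wannabe” is thus a cell that transcribes the *Foxp3* locus without making the protein. The Cd4creERT2 recombinase, active in cells that express *Cd4* and carried by the healthy controls as well, removes the cassette after 4-hydroxytamoxifen. In the female experiment, resting “wannabes” (3 libraries) came from Foxp3LSL/WTCd4wt mice, which kept Treg cells with the wild-type allele, and activated “wannabes” (2 libraries) from Foxp3LSL/DTRCd4wt mice, whose other Treg cells carry the diphtheria toxin receptor. Both kinds of female were 9 to 11 weeks old and received diphtheria toxin 7, 5, 3 and 1 days before analysis. Cells negative for CD8 and NK1.1 were sorted, Treg cells as TCRβ+CD4+Foxp3+ and “wannabes” as TCRβ+CD4+Foxp3-Thy1.1+ cells.

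Histamine is made from histidine by histidine decarboxylase (*Hdc*) and acts through G protein-coupled receptors, of which the H2 receptor raises cyclic AMP and the H4 receptor, found mainly on blood cells, couples to an inhibitory G protein. Prostaglandin E2 and prostacyclin are made from arachidonic acid by cyclooxygenases and terminal synthases, and their receptors EP2, EP4 and IP raise cyclic AMP, which restrains T cell receptor signaling. Leukotriene B4 is made by 5-lipoxygenase with its helper protein FLAP (*Alox5ap*) and by leukotriene A4 hydrolase, and attracts effector T cells and granulocytes through BLT1 (*Ltb4r1*). GPR183, also called EBI2, guides B cells, dendritic cells and CD4 T cells within lymphoid organs along gradients of an oxysterol.

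RefSeq promoter entries on GRCm38.p6 were found for 7 of the 9 genes. The 250 bases before the start are shown, 5′ to 3′ on the strand of the gene, for *Ltb4r1*, *Ptgir* and *Hrh2*. Among the male groups *Ltb4r1* had its highest mean in rescued Treg cells and *Ptgir* in “wannabes”. For *Hrh2* these 2 groups overlapped each other and lay above control Treg cells. Capitals mark matches, on either strand, to the letters TGTGGT of the Runx motif. The *Ltb4r1* window lies at chr14:55765712-55765961, the *Ptgir* window at chr7:16906240-16906489 and the *Hrh2* window at chr13:54191883-54192132, all on the plus strand.
Ltb4r1: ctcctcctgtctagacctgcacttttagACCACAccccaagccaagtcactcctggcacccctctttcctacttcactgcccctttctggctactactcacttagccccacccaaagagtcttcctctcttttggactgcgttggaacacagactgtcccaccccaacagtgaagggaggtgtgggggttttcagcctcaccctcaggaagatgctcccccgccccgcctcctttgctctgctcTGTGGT
Ptgir: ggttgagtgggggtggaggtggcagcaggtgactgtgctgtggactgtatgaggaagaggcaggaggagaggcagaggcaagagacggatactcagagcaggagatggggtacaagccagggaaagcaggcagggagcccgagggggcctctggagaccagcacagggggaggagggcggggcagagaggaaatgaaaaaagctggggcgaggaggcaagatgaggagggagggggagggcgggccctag
Hrh2: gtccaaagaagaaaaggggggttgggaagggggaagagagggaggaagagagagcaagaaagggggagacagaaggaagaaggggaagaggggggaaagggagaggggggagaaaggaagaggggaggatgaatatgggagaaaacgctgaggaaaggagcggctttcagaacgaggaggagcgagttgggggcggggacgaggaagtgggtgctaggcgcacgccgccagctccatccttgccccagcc

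The *Ltb4r1* window held 2 Runx matches, at -222 to -217 and at -6 to -1 from the start, and the *Hpgds* window held 1. These letters occur in 14% of all 32851 promoter windows of the same length in the table. The NFAT letters GGAAAA, present in 20.4% of all windows, were found in the *Ptger2* window alone among the 7. No window of the 7 held AP-1 (TGACTCA, in 4.46% of all windows), CRE (TGACGTCA, 1.55%), forkhead (GTAAACA, 3.17%), the letters AGATAA read by GATA factors (9.99%), STAT (TTCNNNGAA, 7.02%) or T-box (AGGTGTGA, 1.12%) letters, searched on both strands. G and C made up 56.8% of the *Ltb4r1* window, 63.6% of the *Ptgir* window and 60% of the *Hrh2* window. A match or its absence in these windows is a description of letters.

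Between 25556783 and 36659638 reads were counted on genes per library. Replicate libraries had Pearson correlations of log2 library-scaled counts between 0.965 and 0.993 across genes. The spread was larger among the male libraries, with a common biological coefficient of variation of 0.51 against 0.171 among the females. Male “wannabes” held 3018 ± 361.7 normalized counts of *Foxp3* (SD, n = 2), below control (6934 ± 1397, n = 3) and rescued Treg cells (31530 ± 4279, n = 3). The T cell markers *Cd3e*, *Cd3d*, *Cd3g* and *Cd4* summed to between 72620 and 124700 normalized counts in every library. Normalized counts are counts scaled to the effective library size within an experiment, so that levels in males and females were scaled separately and are not tested against each other. In these bulk libraries, fewer cells that express a gene and less RNA per cell cannot be told apart.

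**Figure D1:**
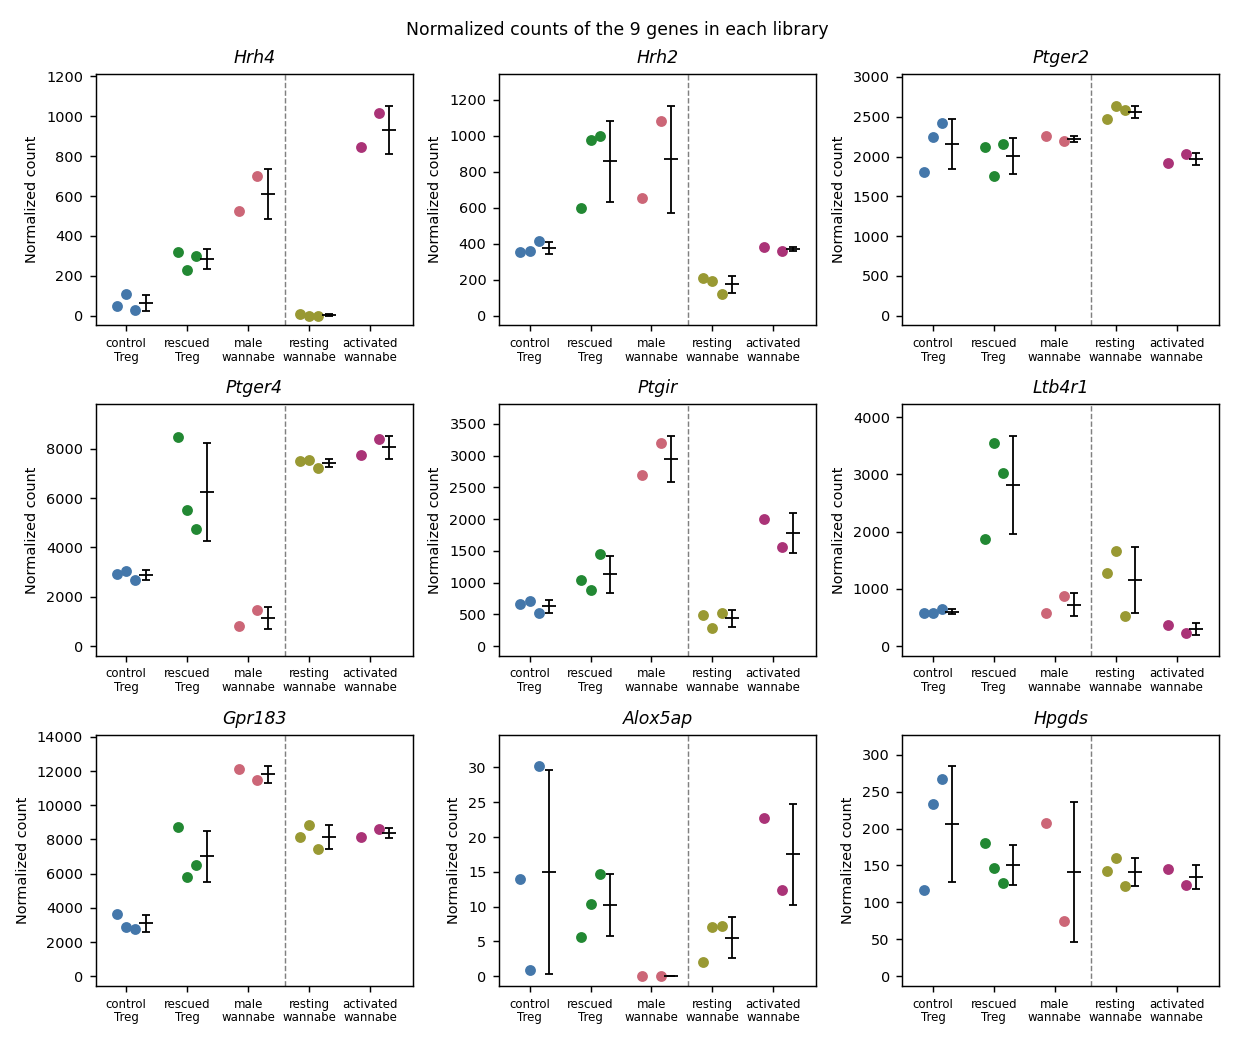
Normalized counts (vertical axes, linear, starting near 0) of the 9 genes in each of the 13 libraries; points are libraries, black bars are the group mean ± SD, and the dashed line separates the male from the female experiment, which were scaled separately. *Hrh4* was at 7.36 or less in all 3 resting “wannabe” libraries and at 847.7 or more in both activated ones, and *Ltb4r1* was highest in the 3 rescued Treg libraries among the males.

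In rescued Treg cells, *Ltb4r1*, *Hrh4*, *Gpr183* and *Ptger4* were 4.69-, 4.51-, 2.27- and 2.17-fold higher than in control Treg cells. These 4 of 9 genes passed the threshold of an adjusted p under 0.05 in edgeR's quasi-likelihood test, all of them higher, where 1.43% of the 14925 genes tested were called higher and 0.864% lower. For 6 of the 9 genes the rescued libraries did not overlap the control libraries, all 6 being higher, against 24.2% of all genes tested without overlap in either direction. The median log2 difference of the 9 genes was 1.12, beside -0.03 over all genes tested. Nothing is read from these counts or this median, since the set was selected on earlier results from the same libraries.

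In male “wannabes”, *Gpr183*, *Ptgir*, *Hrh4* and *Hrh2* were higher and *Ptger4* lower than in control Treg cells. Stated as control against “wannabe”, 1 of the 9 genes was called higher and 4 lower, where 9.92% of all genes were called higher and 6.27% lower. The groups did not overlap for 6 genes, against 46.1% of all genes. Rescued Treg cells differed from male “wannabes” by higher *Ptger4* and *Ltb4r1* and by lower *Ptgir* and *Gpr183*, which is 2 of 9 called in each direction, where 10.0% of all genes were called higher and 4.06% lower. Here 7 genes did not overlap, against 42.7% of all genes. The 3 male comparisons share their libraries with each other, so their values are given side by side below and were not related to one another. Nothing is read from the counts of these comparisons either, for the same reason of selection.

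In activated “wannabes” of females, *Hrh4* rose from almost no reads, *Ptgir* and *Hrh2* stood 4.08- and 2.12-fold higher than in resting “wannabes”, and *Ltb4r1* and *Ptger2* stood 3.88- and 1.3-fold lower. Past the same threshold were 3 of 9 genes upward and 2 downward, beside 11.3% and 11.2% of the 13166 genes tested, and 7 of 9 did not overlap, beside 56.5% of all genes; nothing is read from these counts, since the set was chosen with this comparison known.

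**Figure D2:**
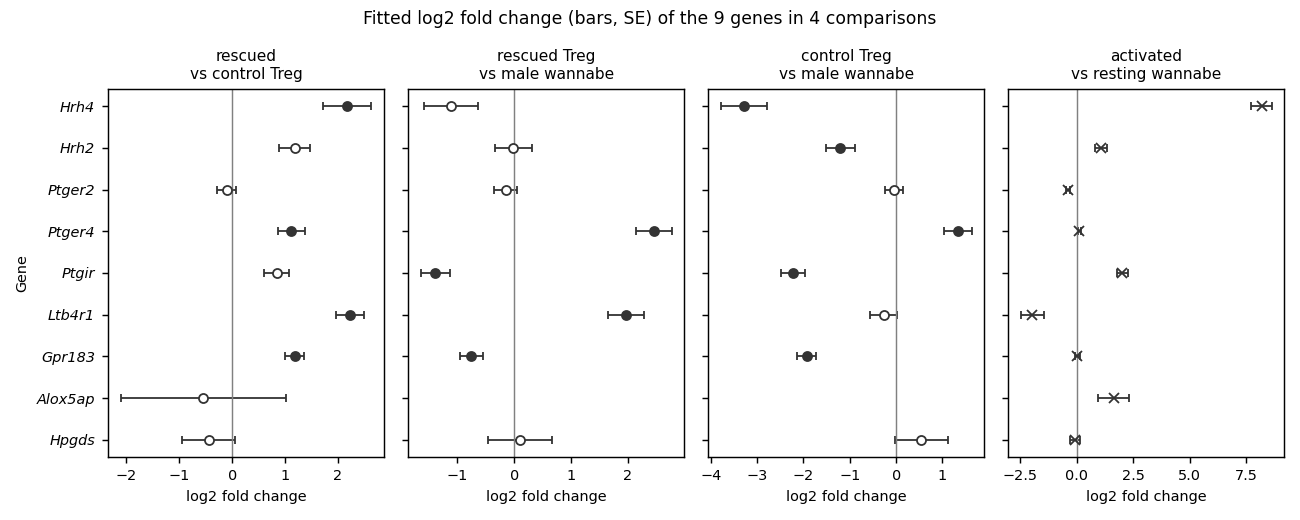
Fitted log2 fold change (horizontal axes, first group over second; bars, SE) of the 9 genes in the 4 comparisons; filled circles passed an adjusted p under 0.05 in the male comparisons, and crosses in the female comparison carry no test. *Alox5ap* has no point in the comparisons with male “wannabes”, where it had 0 counts; *Ltb4r1* lies at 2.23 in rescued against control Treg cells and at -1.95 in activated against resting “wannabes”.

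*Hrh4* encodes the histamine H4 receptor (ENSMUSG00000037346; GRCm38 chromosome 18, 13006990 to 13022882, plus strand, 4 merged exons). Its normalized counts were 48.3, 108.5 and 31.1 in the 3 control Treg libraries, 322.2, 228.1 and 299.3 in the rescued Treg libraries, and 523.4 and 699.1 in the male “wannabe” libraries. The 3 groups stood in this order without overlap. Rescued exceeded control Treg cells by 2.17 ± 0.46 on the log2 scale (SE; adjusted p = 0.0339), and control Treg cells were lower than male “wannabes” by a log2 difference of -3.28 ± 0.50 (adjusted p = 0.00201), which is a 9.72-fold higher level in “wannabes”. The step between rescued Treg cells and “wannabes” was -1.11 ± 0.48 and did not pass the test (adjusted p = 0.158). The rescued against control call was lost without control libraries 1 or 3 or any 1 of the 3 rescued libraries, with log2 differences from 1.85 to 2.83 over all libraries left out in turn and adjusted p from 0.0602 to 0.15 where it was lost. A fit of the 2 Treg groups alone lost it as well, at 2.19 (adjusted p = 0.05).

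In the females, *Hrh4* was at 7.36, 1.02 and 1.04 normalized counts in the resting libraries and at 847.7 and 1019 in the activated ones. The reads behind these values were 7, 1 and 1 against 897 and 1067. Resting “wannabes” thus hardly expressed the gene at this depth, while both activated libraries held far more reads than any resting library. The ratio of scaled counts was 300 with a 95% counting interval of 158 to 657, which covers counting error only, and the fitted log2 difference was 8.17 ± 0.46. Without resting library 1, which held 7 of the 9 resting reads, it was 9.67, and without each of the other libraries it was 7.76 to 8.29. The gene with the second largest absolute log2 difference among the 9 was *Ptgir*, at 2.03.

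*Hrh2*, the histamine H2 receptor (ENSMUSG00000034987; GRCm38 chromosome 13, 54192129 to 54236180, plus strand), was at 355.1, 361.2 and 413.3 in control Treg cells, 598.1, 977.2 and 996.3 in rescued Treg cells, and 655.9 and 1079 in male “wannabes”. All rescued and “wannabe” libraries lay above the control libraries, and these 2 groups overlapped each other. Control Treg cells were lower than “wannabes” by a log2 difference of -1.20 ± 0.32 (adjusted p = 0.0262). This call was lost without any 1 of the 3 control libraries or “wannabe” library 2, with a log2 difference of -0.85 (adjusted p = 0.159) without the latter and between -1.27 and -1.16 (adjusted p from 0.057 to 0.0802) without the former. The rescued against control difference of 1.19 ± 0.29 missed the threshold (adjusted p = 0.065), which it passed in DESeq2 (adjusted p = 0.00228), without a filter (0.0367), at a mean normalized count over 100 (0.0345), in a fit of the 2 Treg groups alone (0.0401) and without “wannabe” library 1 (0.0342) or 2 (0.0366). Rescued and “wannabe” cells differed by -0.02 ± 0.32 (adjusted p = 0.982). In the females *Hrh2* was at 210.4, 191.6 and 122.6 in resting and at 379 and 361.8 in activated “wannabes”, again without overlap, a log2 difference of 1.08 ± 0.25.

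The ligand's enzyme *Hdc* was at 78.9, 137.6 and 96.6 in resting and at 555.7 and 404.8 in activated “wannabes”, and rose 4.595-fold (log2 difference 2.20 ± 0.28, adjusted p = 0.00322). In the males *Hdc* was at 522.5 and 235.9 in “wannabes”, at 52.9, 128.3 and 63.4 in rescued Treg cells and at 7.51, 87.6 and 90.6 in control Treg cells. Control Treg cells against “wannabes” missed the threshold (log2 difference -2.61 ± 0.84, adjusted p = 0.056). Of the 7 genes listed for the histamine system *Hrh4*, *Hrh2* and *Hdc* passed the filter on low counts in both experiments. *Hrh1*, *Hrh3* and the breakdown enzymes *Hnmt* and *Aoc1* had too few reads in both.

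*Hdc* and *Hrh4* are also genes of mast cells, basophils and eosinophils. Of the 8 mast cell and basophil markers, *Mcpt8*, *Mcpt4*, *Tpsb2*, *Fcer1a*, *Ms4a2* and *Cma1* were at 0 in both activated libraries, and the summed list, carried mainly by *Kit*, was lower in activated (586.1 to 742.8 normalized counts) than in resting “wannabes” (816.6 to 1707). In the males the same list summed to 226.4 to 542.6 in control Treg cells, 208.4 to 307.1 in rescued Treg cells and 666.3 to 885.4 in “wannabes”, where *Hrh4* was also highest. *Kit* was called lower in rescued Treg cells than in “wannabes” (log2 difference -1.86 ± 0.38, adjusted p = 0.00778), while *Mcpt4* and *Tpsb2* were at 0 in all male libraries. *Mcpt8* was at 7.52 in “wannabe” library 1, and *Ms4a2* reached 11.9 in control library 2. *Cpa3* had reads in every library. It was at 13.95 to 114.9 in control Treg cells, 26.6 to 41.6 in rescued Treg cells and 22.6 to 28.2 in male “wannabes”. In the females *Cpa3* was at 63.1 to 110.1 in resting and 37.8 to 46.8 in activated “wannabes”. The eosinophil granule genes *Epx* and *Prg2* were at 0 in all female libraries, and among the males *Epx* reached 2.59 and *Prg2* 0.945, each in 1 rescued library. *Siglecf* was at 45.2 in male “wannabe” library 2, and reached 15.6 in resting and 9.55 in activated “wannabes”. *Il5ra* was at 23.3 in rescued library 2. The 5 eosinophil markers summed to 4.21 to 27.0 in resting and 32.5 to 45.4 in activated “wannabes”, and their member *Ccr3*, a chemokine receptor also found on T cells, rose by 2.20 ± 0.62 on the log2 scale (adjusted p = 0.0479). Of the B cell markers, *Cd79b* was at 223.4 to 260.9 in resting and 602.4 to 650.2 in activated “wannabes”, while *Cd79a* was at 58.2 to 71.5 and 59.2 to 72.8 and *Ms4a1* and *Pax5* stayed at 12.6 or less. Dendritic cell markers summed to 97.8 to 130.5 in resting and 200.4 to 238.7 in activated “wannabes”, and monocyte and macrophage markers to 18.9 to 79.5 and 64.9 to 116.2. Their part in the changes of the histamine genes was not tested.

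*Ptger4* encodes EP4 (ENSMUSG00000039942; GRCm38 chromosome 15, 5206661 to 5244187, minus strand). It was at 2930, 3052 and 2669 in control Treg cells, at 8491, 5519 and 4746 in rescued Treg cells and at 823.2 and 1463 in male “wannabes”. The 3 male groups did not overlap, with “wannabes” lowest and rescued Treg cells highest. Rescued Treg cells exceeded “wannabes” 5.47-fold (log2 difference 2.45 ± 0.31, adjusted p = 0.000543), and this call held without each of the 8 libraries in turn. Control Treg cells exceeded “wannabes” by 1.34 ± 0.29 (adjusted p = 0.0114), a call lost without “wannabe” library 1, the lower of the 2 (0.97, adjusted p = 0.0561). Rescued exceeded control Treg cells by 1.12 ± 0.25 (adjusted p = 0.0471), close to the threshold. That call was lost without any 1 of the 6 Treg libraries, at log2 differences of 0.83 to 1.28 and adjusted p from 0.0507 to 0.176.

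In the female libraries *Ptger4* was at 7488, 7557 and 7233 in resting and at 7737 and 8390 in activated “wannabes”, a log2 difference of 0.12 ± 0.07. The transcript was thus abundant in both female groups and differed little between them. *Ptger4* shares 82 exonic bases with *Ttc33* and 1015 with the pseudogene *Gm15937* on the opposite strand, and no source used here says whether reads were counted by strand, so its counts can hold reads of these genes.

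*Ptger2* encodes EP2 (ENSMUSG00000037759; GRCm38 chromosome 14, 44988195 to 45003820, plus strand) and had the narrowest range of group means among the 7 receptors in the males. It was at 1809, 2239 and 2417 in control Treg cells, at 2120, 1751 and 2152 in rescued Treg cells and at 2252 and 2193 in “wannabes”. The group means lay between 2008 and 2222, and the log2 differences of -0.10 ± 0.18, -0.15 ± 0.20 and -0.04 ± 0.20 did not pass the test (adjusted p = 0.865, 0.684 and 0.91). In the females it was at 2475, 2630 and 2580 in resting and at 1914 and 2026 in activated “wannabes”. The activated libraries were lower without overlap, by a log2 difference of -0.38 ± 0.08. Opposite-strand transcripts share 246 (*Gm17173*) and 144 (*Gm49364*) exonic bases with *Ptger2*, 145 (*Gm16578*) with *Hrh2* and 189 (*Gm19719*) with *Alox5ap*, so the counts of these genes carry the same limit.

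*Ptgir*, the prostacyclin receptor (ENSMUSG00000043017; GRCm38 chromosome 7, 16906490 to 16910905, plus strand), followed the opposite order to *Ptger4* in the males where “wannabes” are concerned. It was at 663, 709.5 and 515.2 in control Treg cells, at 1039, 890.4 and 1455 in rescued Treg cells and at 2690 and 3207 in “wannabes”, with no overlap among the 3 groups. “Wannabes” exceeded control Treg cells 4.69-fold (log2 difference -2.23 ± 0.26 for control against “wannabe”, adjusted p = 0.000614) and rescued Treg cells 2.61-fold (-1.39 ± 0.26, adjusted p = 0.00476). Both calls held without each of the 8 libraries in turn. Rescued against control Treg cells gave 0.84 ± 0.24 and missed the threshold (adjusted p = 0.101), which it passed in DESeq2 (adjusted p = 0.0113). In the females *Ptgir* was at 496.5, 286.4 and 527.8 in resting and at 2009 and 1554 in activated “wannabes”, a log2 difference of 2.03 ± 0.26 without overlap.

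The prostanoid receptor list holds 9 genes, of which 8 were tested in the males and 7 in the females. Against male “wannabes”, rescued Treg cells had 1 gene called higher (*Ptger4*) and 2 lower (*Ptgir* and *Ptgdr2*), and control Treg cells had 2 higher (*Ptger4* and *Tbxa2r*) and 1 lower (*Ptgir*). Over all genes tested, 10.0% were called higher and 4.06% lower in the former comparison and 9.92% and 6.27% in the latter, and nothing particular to the list is read from these counts. Outside the 9 genes, the thromboxane receptor *Tbxa2r* was at 2283, 3003 and 2027 in control Treg cells and at 608.9 and 1345 in “wannabes” (log2 difference 1.32 ± 0.33, adjusted p = 0.0194). The list's median log2 difference was -0.25 in rescued against control Treg cells, 0.04 in rescued Treg cells against “wannabes”, 0.37 in control Treg cells against “wannabes” and 0.12 in activated against resting “wannabes”. Over all genes tested the medians were -0.03, 0, 0.09 and -0.01.

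*Hpgds*, the hematopoietic prostaglandin D synthase (ENSMUSG00000029919; GRCm38 chromosome 6, 65117293 to 65144908, minus strand), did not pass the test in the 3 male comparisons. It was at 116.9, 233.5 and 267 in control Treg cells, 180.5, 146.5 and 126.7 in rescued Treg cells and 207.7 and 74.3 in “wannabes”, so that all groups overlapped. Log2 differences were -0.44 ± 0.50 (rescued against control), 0.10 ± 0.56 (rescued against “wannabe”) and 0.54 ± 0.57 (control against “wannabe”), with adjusted p of 0.761, 0.937 and 0.558. Resting libraries were at 142, 160 and 122.6 and activated ones at 145.5 and 123.1, a log2 difference of -0.08 ± 0.23. The prostaglandin D2 receptors *Ptgdr* and *Ptgdr2* stayed at 94.9 normalized counts or less in every library, *Ptgdr2* being highest in male “wannabes” (94.9 and 49.6) and at 0.945, 1.3 and 4.59 in rescued Treg cells (log2 difference -4.89 ± 1.37, adjusted p = 0.0354).

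Of the 12 genes for prostanoid synthesis and breakdown, 8 were tested in the males and 5 in the females. Rescued Treg cells had 2 of 8 called higher than “wannabes”, the prostaglandin E synthases *Ptges2* (log2 difference 2.98 ± 0.70, adjusted p = 0.0159) and *Ptges3* (1.70 ± 0.39, adjusted p = 0.0151), where 10.0% of all genes tested were called higher. *Ptges2* was at 1029, 211.3 and 295.7 in the rescued libraries and at 86.5 and 43.1 in the “wannabes”, so that rescued library 1 stood far above the others. *Ptges3* was also called higher in control Treg cells than in “wannabes” (1.49 ± 0.39, adjusted p = 0.0253). In activated “wannabes” *Ptges3* fell by 0.54 on the log2 scale (SE 0.08, adjusted p = 0.00566), and the prostaglandin exporter *Abcc4* rose by 0.58 ± 0.08 (adjusted p = 0.00429). The inducible cyclooxygenase *Ptgs2* was at 0 in all 8 male libraries and at most at 2.86 in the females.

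*Ltb4r1* encodes the leukotriene B4 receptor BLT1 (ENSMUSG00000046908; GRCm38 chromosome 14, 55765962 to 55768494, plus strand, 2 merged exons). Its normalized counts were 568.6, 578.2 and 652 in control Treg cells, 1873, 3546 and 3028 in rescued Treg cells and 577.9 and 869.2 in male “wannabes”. Every rescued library stood above every control and “wannabe” library, while these 2 groups overlapped. Rescued Treg cells exceeded control Treg cells 4.69-fold (log2 difference 2.23 ± 0.27, adjusted p = 0.00289) and “wannabes” 3.89-fold (1.96 ± 0.31, adjusted p = 0.0019). Both calls held without each of the 8 libraries in turn, with log2 differences of 2.05 to 2.45 and 1.69 to 2.24. Control Treg cells and “wannabes” differed by -0.27 ± 0.29 (adjusted p = 0.569).

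In the female libraries *Ltb4r1* was at 1275, 1659 and 524.7 in resting and at 370.5 and 224.3 in activated “wannabes”. The activated libraries were lower without overlap, but resting library 3 lay closer to them than to the other resting libraries. The log2 difference was -1.95 ± 0.50, the opposite direction to the change between control and rescued Treg cells. Left-out libraries gave log2 differences between -2.36 and -1.60.

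*Alox5ap* (ENSMUSG00000060063; GRCm38 chromosome 5, 149264767 to 149288153, plus strand), whose product FLAP hands arachidonic acid to 5-lipoxygenase, was expressed near the limit of detection. Control Treg cells held 13, 1 and 32 reads, rescued Treg cells 6, 8 and 16, and male “wannabes” 0 and 0. With a floor of 3 counts in place of the “wannabe” reads, the ratio of scaled counts was 9.89 for control and 6.83 for rescued Treg cells. These ratios are not lower limits. The counting intervals, which cover counting error only, were 33.7 to 61.4 reads in control Treg cells, 20.2 to 42.8 in rescued Treg cells and 0 to 3.69 in “wannabes”. Control library 3 held 32 of the 46 control reads. In edgeR neither control nor rescued Treg cells against “wannabes” passed the test (adjusted p = 0.103 and 0.135), while DESeq2 called the former (adjusted p = 0.033). Rescued against control Treg cells gave -0.55 ± 1.57 (adjusted p = 0.925). Resting “wannabes” held 2, 7 and 7 reads and activated ones 24 and 13, a ratio of scaled counts of 3.18 with a counting interval of 1.73 to 6.12. 5-lipoxygenase itself, *Alox5*, was at 1.05 normalized counts or less in every female library and at 68.4 or less in the males.

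Among the 9 leukotriene genes, 8 were tested in the males and 6 in the females. *Ltb4r1* was the only one called in rescued against control Treg cells and in rescued Treg cells against “wannabes”, higher in both, where 1.43% and 10.0% of all genes were called higher. Control Treg cells against “wannabes” called the cysteinyl leukotriene receptor *Cysltr1* alone, at 158.8, 27.4 and 344.4 against 4270 and 2019 (log2 difference -4.15 ± 0.73, adjusted p = 0.00387), where 6.27% of all genes were called lower. *Cysltr1* was at 1400, 942.2 and 737.3 in rescued Treg cells, between the other groups and without overlap. It was at 827.8, 1561 and 468.6 in resting and at 2120 and 2389 in activated “wannabes” (1.24 ± 0.43, adjusted p = 0.0849). Leukotriene A4 hydrolase, *Lta4h*, was abundant everywhere, at 8617 to 14720 in the males and 9205 to 12310 in the females.

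*Gpr183* (ENSMUSG00000051212; GRCm38 chromosome 14, 121952551 to 121965195, minus strand) lies within *Ubac2* on the opposite strand and shares no exonic bases with it. It was at 3663, 2872 and 2738 in control Treg cells, 8703, 5827 and 6494 in rescued Treg cells, and 12140 and 11470 in male “wannabes”. The groups did not overlap and stood in the same order as for *Hrh4* and *Ptgir*, with control Treg cells lowest. “Wannabes” exceeded control Treg cells 3.82-fold (log2 difference -1.93 ± 0.20 for control against “wannabe”, adjusted p = 0.000382), and this call held without each library in turn. Rescued exceeded control Treg cells by 1.18 ± 0.18 (adjusted p = 0.00964), a call lost without control library 3 (1.101, adjusted p = 0.0534). Rescued Treg cells were lower than “wannabes” by -0.75 ± 0.20 (adjusted p = 0.0284). This last call was lost without rescued library 2 or 3 or either “wannabe” library, at differences of -0.84 to -0.59 and adjusted p from 0.0506 to 0.125.

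In the females *Gpr183* was at 8156, 8857 and 7458 in resting and at 8173 and 8587 in activated “wannabes”. The groups overlapped, with a log2 difference of 0.04 ± 0.09. Of the enzymes that make or degrade its oxysterol ligands, *Ch25h* and *Cyp7b1* did not pass the filter in either experiment. *Hsd3b7*, which takes part in degrading the ligand, was at 327.9, 287.7 and 319.5 in rescued Treg cells and at 97.7 and 71.1 in male “wannabes” (log2 difference 1.88 ± 0.43, adjusted p = 0.0134). In control Treg cells it was at 158.8, 187 and 168.

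Compared per kilobase of merged exons, *Gpr183* had the highest level of the 9 genes in all 5 groups, from 1071 ± 173.1 normalized counts per kilobase in control Treg cells to 4091 ± 166.3 in male “wannabes” (SD). In rescued Treg cells *Ltb4r1* came next at 2020 ± 614.6, within the spread of *Gpr183* at 2427 ± 521.3. In male “wannabes” *Ptgir* came next at 884.2 ± 109.5, followed by *Ltb4r1* (519.1 ± 147.8), *Ptger2* (427.9 ± 7.97) and *Hrh4* (375.9 ± 76.4), which did not differ beyond their spread. In control Treg cells *Ptger4* (433.8 ± 29.4), *Ltb4r1* (430.1 ± 32.7) and *Ptger2* (415 ± 60.3) did not differ beyond their spread.

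In the females the second mean belonged to *Ptger4*, at 1117 ± 25.7 per kilobase in resting and 1213 ± 69.4 in activated “wannabes”, and in resting “wannabes” it lay within the spread of *Ltb4r1* (827.1 ± 413.9). *Hrh4* moved from the last place in resting “wannabes” (1.93 ± 2.25) to the third in activated ones (573.9 ± 74.3), where it lay within the spread of *Ptgir* (534.5 ± 96.5). *Hrh2* was at 29.5 ± 7.79 and 62.4 ± 2.05. *Hpgds* and *Alox5ap* were at most at 32.0 per kilobase in every group.

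**Figure D3:**
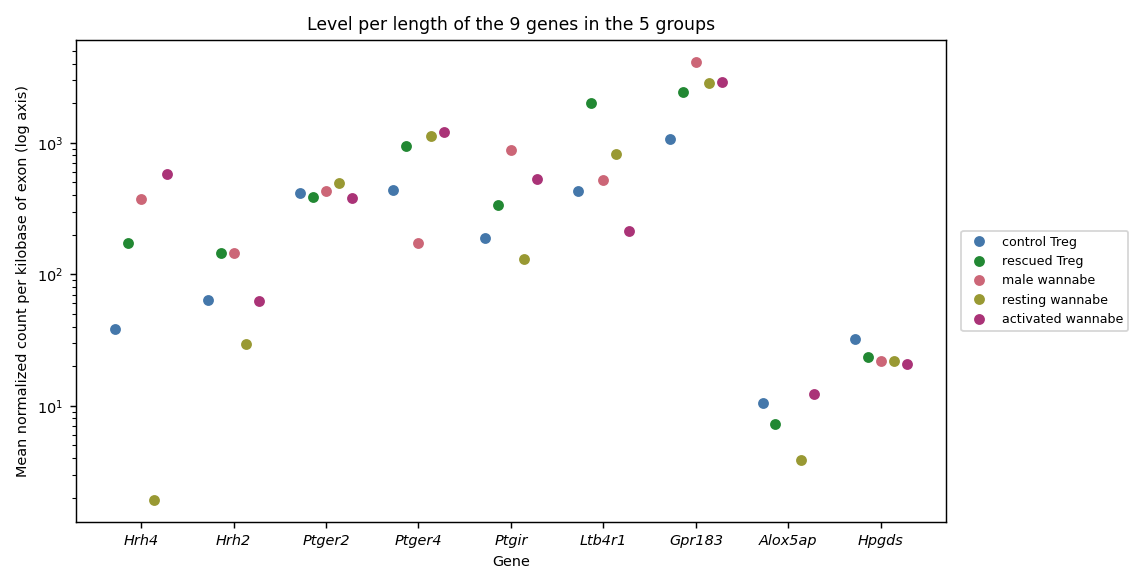
Mean normalized count per kilobase of merged exons (vertical axis, log scale) of the 9 genes (horizontal axis) in the 5 groups; points are group means without error bars, male and female libraries were scaled separately, and *Alox5ap* has no point for male “wannabes”, where it was 0. *Gpr183* is the highest gene in each group, and *Hrh4* spans from 1.93 in resting to 573.9 in activated “wannabes”.

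EP2, EP4, IP and the H2 receptor raise cyclic AMP. All 19 listed genes of cyclic AMP signaling were tested in both experiments. Rescued against control Treg cells had 1 of 19 called, the phosphodiesterase *Pde7a*, at 311.8, 295.5 and 254.3 against 889.4, 707.7 and 1070 (log2 difference -1.63 ± 0.27, adjusted p = 0.0116), where 0.864% of all genes were called lower and 1.43% higher. *Pde7a* was also lower in rescued Treg cells than in male “wannabes” (-1.25 ± 0.29, adjusted p = 0.0142), as was the adenylyl cyclase *Adcy6* (-1.62 ± 0.46, adjusted p = 0.0375), while the transcription factor genes *Crem* (1.25 ± 0.30, adjusted p = 0.0173) and *Atf1* (1.104 ± 0.30, adjusted p = 0.0315) were higher, beside 4.06% and 10.0% of all genes called in these directions. Control Treg cells against “wannabes” had 1 of 19 called, *Crem* (1.02 ± 0.30, adjusted p = 0.0382), where 9.92% of all genes were called higher and 6.27% lower. In activated “wannabes” 1 of 19 rose, *Pde3b* (1.05 ± 0.18, adjusted p = 0.00975), and 2 fell, *Creb1* (-0.54 ± 0.08, adjusted p = 0.00744) and *Pde4b* (-0.45 ± 0.11, adjusted p = 0.0292), shares no higher than the 11.3% and 11.2% of all genes called in these directions.

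Of 20 other receptors for lipids and fatty acids, 17 were tested in each experiment. In activated “wannabes” 4 of 17 were called lower and 0 higher, where 11.2% of all genes tested were called lower and 11.3% higher, so that nothing particular to the list is read from this count. They were the short-chain fatty acid receptor *Ffar2* (log2 difference -4.32 ± 0.61, adjusted p = 0.00497), the lysophosphatidic acid receptors *Lpar6* (-1.56 ± 0.18, adjusted p = 0.00247) and *Lpar3* (-1.33 ± 0.20, adjusted p = 0.0063), and *Gpr132* (-0.49 ± 0.10, adjusted p = 0.017). *Ffar2* went from 406, 320 and 246.2 in resting to 27.4 and 4.77 in activated “wannabes”. In the males *Gpr34*, a receptor for lysophosphatidylserine, was at 641.5, 749.7 and 479.3 in control Treg cells, 153.1, 655.8 and 189.2 in rescued Treg cells and 89.3 and 36.6 in “wannabes”. It was called higher in control (3.30 ± 0.70, adjusted p = 0.00942) and rescued Treg cells (2.39 ± 0.67, adjusted p = 0.0362) than in “wannabes”. Rescued library 2 stood far above the other rescued libraries, and the rescued difference without it is not given here. *Gpr18* was lower in rescued than in control Treg cells (-0.76 ± 0.17, adjusted p = 0.0487).

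**Figure D4:**
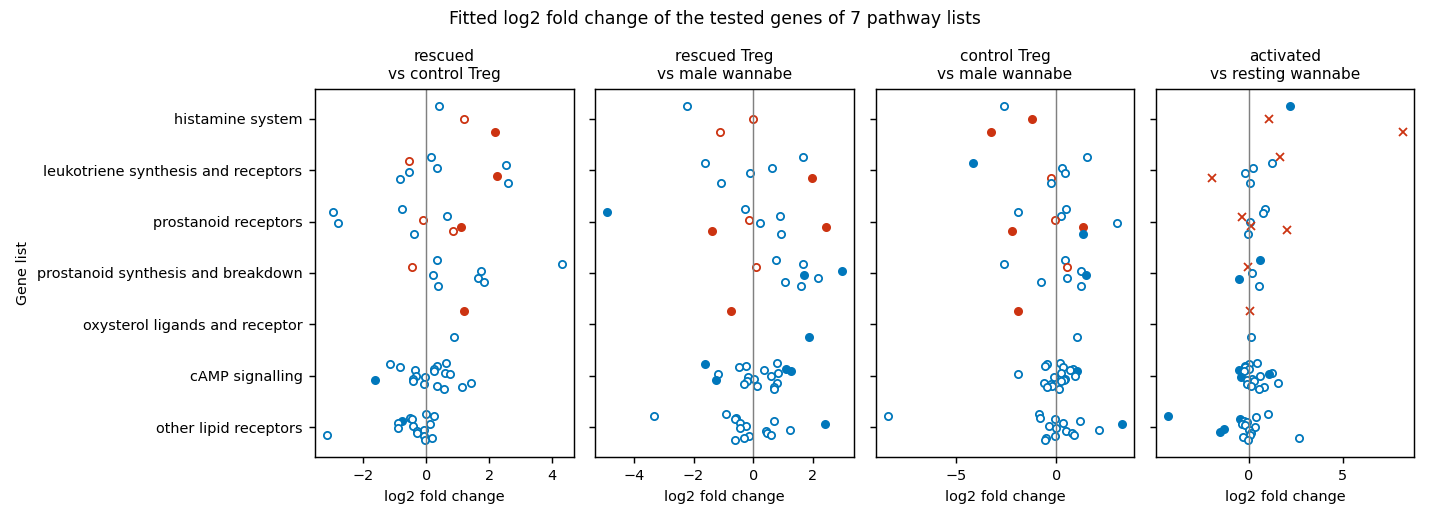
Fitted log2 fold change (horizontal axes, first group over second) of the tested genes of 7 pathway lists (vertical axis) in the 4 comparisons; red marks the 9 genes of the set and blue the other genes, filled circles passed an adjusted p under 0.05, red crosses carry no test, and genes with 0 counts in the second group are left out. In activated against resting “wannabes” the histamine gene *Hdc*, which is not of the set, lies at 2.2, and *Ffar2*, at -4.32, is among the filled points of the other lipid receptors.

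Genes whose levels most closely followed those of each of the 9 genes were looked for by Pearson correlation of log2 library-scaled counts over the 13 libraries, with each experiment centered on its own mean, among 10713 genes with a mean normalized count over 100. The libraries share their groups, so r describes a likeness of pattern and carries no test. The 3 genes nearest to *Hrh4* were *E2f2* (r = 0.96), *5430427O19Rik* (0.954) and *Cd79b* (0.949). For *Hrh2* they were *Tigit* (0.952), *Plekho2* (0.949) and *Zcchc18* (0.946), and for *Ptgir* *Csrp1* (0.954), *Trpm6* (0.95) and *Klk8* (0.944). *Ltb4r1* had no gene above 0.9, and those near it included *Spsb3* (0.895) and the Ikaros family gene *Ikzf3* (0.866).

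*Ptger4* was nearest to *Abhd17a* (0.993), *Map2k2* (0.992) and *Imp3* (0.991). These correlations come from the males (0.994 to 0.995), since within the females, where *Ptger4* varied little, r was 0.184 to 0.497. *Gpr183* was nearest to *Paqr7* (0.969), *Ppp2r1a* (0.96) and the cytokine gene *Il4* (0.953), likewise with r of 0.288 to 0.692 within the females. For *Ptger2* the nearest genes were *Plekhf1* (0.936), *Snhg15* (0.859) and *Taf1a* (0.854). *Hpgds* was nearest to *Gm6712* (0.901), *1110032A03Rik* (0.899, but -0.288 within the females) and *AU041133* (0.886), and *Alox5ap*, with its few reads, to *Rtn3* (0.892), *Abhd18* (0.851) and *Yes1* (0.844).

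Markers of other cells also differed among the male groups. The 2 natural killer cell markers summed to 13.7 to 43.4 normalized counts in control Treg cells, 94.6 to 222.9 in rescued Treg cells and 151.3 to 224 in “wannabes”, lowest in control Treg cells, as were *Hrh4*, *Ptgir* and *Gpr183*. Most of this sum was *Klrb1c*, which encodes the NK1.1 antigen that the sort gated out, in all male libraries but rescued library 3, where *Ncr1* was at 50.5 and *Klrb1c* at 44.1. Dendritic cell markers summed to 29.3 to 63.3, 71.3 to 122.1 and 137.9 to 241.5 in the same order. Monocyte and macrophage markers summed to 4.29 to 20.1 in control Treg cells, 24.6 to 76.5 in rescued Treg cells and 3.23 to 76.1 in “wannabes”. The 3 of these 5 markers that were tested had a median log2 difference of 1.45 in rescued against control Treg cells and did not pass the test. The B cell marker *Cd79b* was at 713.3 to 981.3 in control Treg cells, 1048 to 1249 in rescued Treg cells and 986.7 to 1211 in “wannabes”. *Cd79a* did not follow it, at 182.4 to 335, 123.1 to 291.1 and 148.5 to 231.6, and *Pax5* reached 88.5, 7.35 and 2.15 in the same order. The 3 B cell markers tested had a median log2 difference of -0.23 in rescued against control Treg cells, 1 of them being positive. Eosinophil markers summed to 236.2 to 600.8 in control Treg cells, 484.8 to 947.7 in rescued Treg cells and 89.3 to 89.4 in “wannabes”. In both Treg groups nearly all of this sum was *Ccr3*, at 236.2 to 600.8 and 483 to 946.7, the chemokine receptor also found on T cells. *Ccr3* was called higher in both than in “wannabes” (log2 differences 2.74 and 3.46). In “wannabe” library 2 *Siglecf* was at 45.2 and *Ccr3* at 44.2. *Siglech* was at 0 in all 3 male groups and *Ncr1* at 0 in control Treg cells and “wannabes”. Their part in the differences of the 9 genes was not tested.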

How the data were processed

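RNA of sorted cells was amplified with SMART-Seq v4 and sequenced as paired ends. The authors aligned reads with STAR 2.7.3a to GRCm38, used GATK for local realignment, and tallied reads per gene in R. The deposited values are raw read counts, and the annotation and strand setting are not given in the sources used here. Each table held 24421 entries, of which 4 without a name (0.00353 to 0.00841 percent of counts) were left out. A floor of 3 counts is 8.18e-06 to 1.17e-05 percent of a library; without molecular identifiers it covers counting error only. The study's methods call the male libraries biological replicates and name 3 and 2 mice for the female groups.

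Counts were fitted in R 4.3.3 with edgeR 4.0.16 (TMM, filterByExpr, quasi-likelihood F test, Benjamini-Hochberg over all genes tested, adjusted p under 0.05), the 8 male and the 5 female libraries separately. Error terms given as ± beside log2 differences are standard errors. Coordinates and exon lengths come from GENCODE M21 (23651 genes, 96.9 percent, matched by symbol), promoter windows from RefSeq. The members and the pathway lists were chosen with earlier results of these data known. Of the lists, genes were named where they were called, had a mean normalized count over 100 and did not overlap between groups, at most 4 per list and comparison; genes named with values outside this rule (such as *Hdc* in the males, *Lta4h*, *Alox5*, *Ptgs2* and the marker genes) were chosen after their values were seen. Alternatives were DESeq2 1.42.0, DESeq2 size factors, no filter, a mean normalized count over 100, a replicate block, fitting the 2 compared groups alone, and leaving out each library. Results for some genes that these rules covered are not reported here.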

Additional observations from a re-analysis of the deposited data

Results flagged for a closer look

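*Ltb4r1* moved in opposite directions in the 2 experiments. Every rescued Treg library was above every control Treg library, with a log2 difference of 2.23, and both activated “wannabe” libraries were below every resting library, with a log2 difference of -1.95. The difference between these 2 changes was not tested, since the experiments differ in sex, age, treatment and cell population.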

How the results depend on the processing

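The counts of the 9 genes called in the male comparisons (4, 4 and 5) stayed within 1.5 times under all alternatives that kept every library. Leaving out 1 library at a time, they ranged from 1 to 5 (rescued against control Treg), 3 to 4 (rescued Treg against male “wannabe”), 4 to 5 (control Treg against male “wannabe”) and 2 to 4 (activated against resting “wannabe”). All genes called ranged from 114 to 598, 1570 to 1959, 1549 to 2423 and 751 to 3215, and genes of the pathway lists called from 1 to 8, 5 to 14, 7 to 14 and 5 to 19. A library left alone in its group was assumed to vary like the others. DESeq2 called 1195 genes in rescued against control Treg cells (343 in edgeR), 3335 in rescued Treg cells against “wannabes” (2105) and 3767 in control Treg cells against “wannabes” (2416), with 11 pathway genes in the first (6) and 25 in the third (10). Without a filter the first comparison called 612 genes and the third 19 pathway genes, and a fit of the 2 Treg groups alone called 580 genes. The causes were not tested.

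*Hrh2* in rescued against control Treg cells, not called in the edgeR fit, was called by DESeq2 (adjusted p = 0.00228), without a filter (0.0367), at a mean over 100 (0.0345) and in the 2-group fit (0.0401). *Ptgir* in that comparison was called by DESeq2 (0.0113), and *Alox5ap* in control Treg cells against “wannabes” by DESeq2 (0.033). In activated against resting “wannabes”, where no test is read for the 9 genes, the log2 differences without each library in turn ranged from 7.76 to 9.67 (*Hrh4*), 1.80 to 2.19 (*Ptgir*), 0.88 to 1.25 (*Hrh2*), -2.36 to -1.60 (*Ltb4r1*) and -0.43 to -0.34 (*Ptger2*).

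Same-numbered libraries deviated from their group means with correlations of -0.0292 to 0.0845, which gave no sign that the numbers pair the libraries. With so few libraries per group these correlations cannot exclude a shared source or batch. With a replicate block 3 rather than 5 of the 9 genes passed in activated against resting “wannabes”, a count from which nothing is read.

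The changes of sign were all in differences that were not called. *Hrh2* in rescued Treg cells against “wannabes” was 0.0507 at a mean over 100, and *Gpr183* in activated “wannabes” was -0.0208 with the block. Leaving out libraries, rescued against control Treg cells ranged from -0.21 to 0.0028 (*Ptger2*) and -1.10 to 0.46 (*Alox5ap*). Rescued Treg cells against “wannabes” ranged from -0.34 to 0.34 (*Hrh2*) and -0.50 to 1.02 (*Hpgds*). Control Treg cells against “wannabes” ranged from -0.13 to 0.0679 (*Ptger2*), -0.54 to 0.0059 (*Ltb4r1*) and -0.0601 to 1.46 (*Hpgds*). Activated “wannabes” ranged from -0.0219 to 0.10 (*Gpr183*) and -0.20 to 0.0300 (*Hpgds*).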
